A study of Mus musculus with 24 samples.

Results

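The 9 genes described here write, maintain or remove methylation of cytosine in CpG dinucleotides: Dnmt1, Uhrf1, Dnmt3a, Dnmt3b, Dnmt3l, Tet1, Tet2, Tet3 and Tdg. Each was represented by every chromatin accessibility interval overlapping its GRCm38 gene body extended by 20 kb on each side, which gave 292 of 299780 intervals in the table without inhibitor and 271 of 272268 in the table with it. The assay was ATAC-seq, which reads open chromatin from the places where Tn5 transposase inserts sequencing adapters. The cells were E14, a mouse embryonic stem cell line, cultured with serum and leukemia inhibitory factor on gelatin-coated plates. They were wild type (WT) or either of the Smad2 knockout lines Smad2_KO1 and Smad2_KO2, where Smad2 is a signal transducer of the Nodal and activin receptors. Libraries came from untreated cells (Ctrl) and from cells kept for 12 hours in 200 nM INK128, an inhibitor of the growth kinase mTOR, a treatment called pausing (Paused). There were 4 libraries in each of the 6 groups (24 libraries), from 50000 cells per library. How the knockout lines were made, and whether each is a single clone, is not given in the sources used here, nor is whether the 4 libraries of a group came from separate cultures, so p-values measure the spread between these libraries, which may be technical. Accessibility does not show loss of the Smad2 protein, so the genotypes are taken from the labels.

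DNA methylation in mammals is kept up by Dnmt1, which copies the mark onto the new strand after replication, with Uhrf1 recruiting it to hemimethylated sites. New methylation is laid down by Dnmt3a and Dnmt3b, and Dnmt3l is a catalytically inactive partner that stimulates them. The Tet enzymes oxidize 5-methylcytosine, and Tdg, a DNA glycosylase, cuts out the more oxidized forms so that base excision repair can restore cytosine. Embryonic stem cells express most of these genes, and in serum their genome is highly methylated. All values below are accessibility, not transcript, protein or methylation levels.

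The values are normalized reads per interval: reads divided by 1 factor per library, as the authors deposited them. The depth, as reads in intervals, was 11772458 to 16525762 per library for Ctrl, and 11456986 to 20007829 for Paused. Almost every interval has the same width of 201 bases, so width does not affect comparisons of level between genes. Other differences between sites that may affect level were not corrected for. Within the Paused table, replicate 2 of Smad2_KO1 and replicate 2 of Smad2_KO2 differed by no more than sampling noise (chi-square per degree of freedom 1.0013, against an upper limit of 1.0055), although their labels name different lines. The other 3 pairs of knockout libraries with the same number in Paused were at 1.026 to 1.074, and the 12 pairs with different numbers at 1.099 to 1.487. In Ctrl same-number pairs were at 1.016 to 1.27 and different-number pairs at 1.117 to 1.534. Same-number libraries of the knockout lines were thus closer on average than others in both tables, and the cause was not tested. Both knockout lines are also compared with the same 4 WT libraries of a table. For both reasons, calls in Smad2_KO1 and in Smad2_KO2 are not independent support for each other. The main Paused counts are given both ways, with and without the replicate 2 pair, and named Paused calls lost without it are marked. Other Paused counts include that pair. Of the start sites of 8 embryonic stem cell markers, 7 in Ctrl and 6 in Paused had an interval, against 0 of 4 for primitive endoderm in either table. For fibroblast markers the count was 1 of 4 and 2 of 4, and for trophoblast markers also 1 of 4 and 2 of 4. Whether other cell types contributed to the differences below was not tested.

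Few intervals at these genes differed between the knockout lines and WT. The 2 places called lower in both tables were both upstream of Dnmt3b. They are 1.06% of the places matched between the tables at these genes, against 2.24% of all matched places. Calls at Dnmt3a, Tet2 and Tet3 in Paused were mostly higher, as were Paused calls over all intervals. Several of the higher calls at Dnmt3a, Tet2 and Tet3 were lost without the replicate 2 pair. An interval was called when the adjusted p was under 0.05 against WT in each knockout line with the same sign (limma on log2(value + 1), adjusted over all intervals by the Benjamini-Hochberg method). In Ctrl, 277 of the 292 intervals had enough reads to be tested and 16 were called, 11 higher and 5 lower. That is 5.78% of those tested, against 7.15% of all tested intervals (3.95% higher and 3.2% lower). In Paused, 263 of 271 were tested and 35 were called, 28 higher and 7 lower, or 13.3% against 13.9% of all tested intervals (9.01% higher and 4.92% lower). These shares are near the background, and the Ctrl share is under it.

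The split between higher and lower calls moved with the scaling. With DESeq2 size factors it became 9 higher and 7 lower in Ctrl (2.84% and 4.74% of all intervals) and 19 and 17 in Paused (6.01% and 8.65%). With TMM factors it was 9 and 5 in Ctrl (2.96% and 4.55%) and 20 and 16 in Paused (6.31% and 8.09%). The DESeq2 test called 9 intervals in Ctrl and 18 in Paused, against 3.48% and 7.63% of all. These factors moved the median log2 fold change of all intervals from 0.08 to 0.01 and 0.02 in Ctrl, and from 0.12 to 0.02 and 0.03 in Paused. The Paused count fell from 35 to 17 without replicate 2 of both knockout lines, 13 higher and 4 lower (4.21% and 2.82% of all intervals), and all 17 were among the 35. It fell to 23 without Smad2_KO1 replicate 2 alone and to 23 without Smad2_KO1 replicate 3 alone.

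The 8 knockout libraries were separate from the 4 WT libraries, all above or all below them, at 13 tested intervals of the genes in Ctrl and at 32 in Paused, against 7.48% and 11.5% of all tested intervals. Those counts are 4.69% and 12.2% of the intervals tested at the genes. Without replicate 2 of both lines, the 6 other Paused knockout libraries were separate from WT at 38 intervals (14.4%), against 13.1% of all. No interval of the 9 genes was called between Smad2_KO1 and Smad2_KO2 in either table (limma). The same held for all tested intervals, of which 0 were called in Ctrl and 0 in Paused. The edgeR and DESeq2 tests called none either. At an unadjusted p under 0.05, 10 Ctrl and 5 Paused intervals differed between the knockout lines, against 3.28% and 1.97% of all tested intervals. Both shares of all intervals were under what this threshold gives when nothing differs. These tests took no account of the closeness of same-number knockout libraries, so the lack of calls does not show that the lines agree. The authors' deposited table, which compares the 8 knockout libraries as a single group with WT, listed 31 Ctrl and 58 Paused intervals of these genes at a false discovery rate under 0.05, against 12.2% and 21.6% of all intervals.

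**Figure D1:**
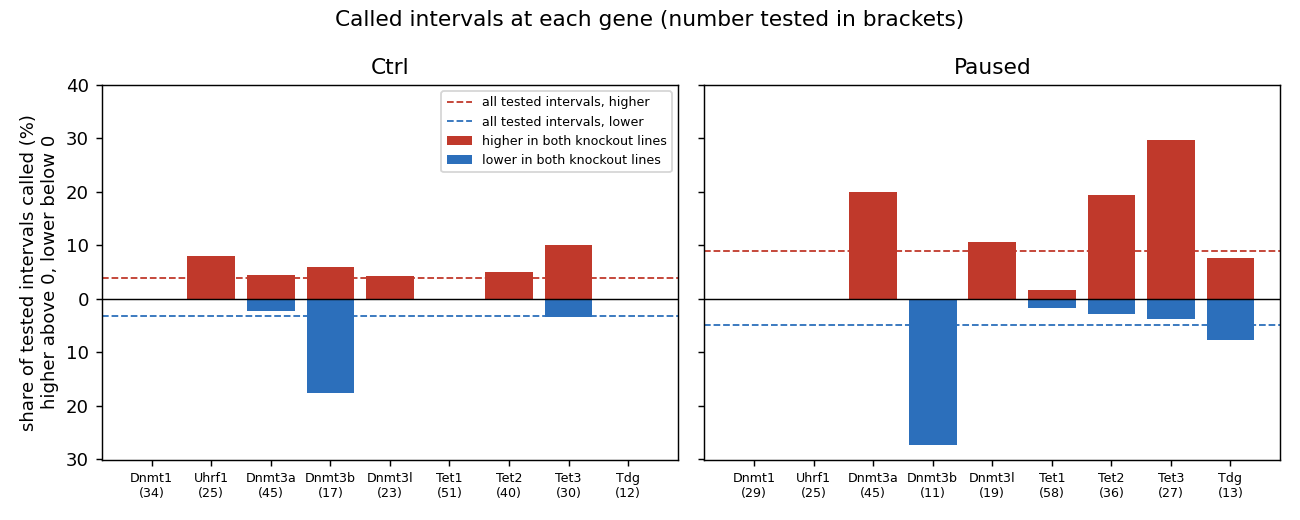
Share of the tested intervals of each gene called higher (above 0) or lower (below 0) in both knockout lines, in percent, for Ctrl (left) and Paused (right); dashed lines are the shares over all tested intervals. Dnmt3b had 3 lower calls in each table, and Dnmt1 had none in either.

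The maintenance genes Dnmt1 and Uhrf1 had no lower call in either table. Dnmt1 had 34 tested intervals in Ctrl and 29 in Paused, and none was called, against 7.15% and 13.9% of all tested intervals. Its strongest interval near an annotated start lay at chr9:20952901-20953101 in Ctrl, in the tables' mm10 coordinates. There WT libraries had 292, 279, 256 and 264 normalized reads, Smad2_KO1 libraries 258, 212, 271 and 261, and Smad2_KO2 libraries 274, 231, 269 and 243. The groups overlapped, with log2 fold changes of -0.13 (SE 0.10, adjusted p = 0.416) and -0.10 (adjusted p = 0.533). In Paused the matching interval at chr9:20952913-20953113 averaged 391 ± 51.4 for WT, 324 ± 23.1 for Smad2_KO1 and 342 ± 17.5 for Smad2_KO2 (SD, n = 4 each; limma adjusted p = 0.0328 and 0.143). It passed the test in Smad2_KO1 alone and was not called. The authors' deposited table, with the knockout libraries as a single group, lists this interval at a false discovery rate of 0.0179. The difference between the knockout lines at this interval was itself not called.

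Uhrf1 had the start interval with the most normalized reads of these genes in Ctrl, at chr17:56304156-56304356. It averaged 362 ± 54.3 for WT, 395 ± 31.3 for Smad2_KO1 and 370.3 ± 16.9 for Smad2_KO2 (SD, n = 4 each). Neither knockout line passed the test there (limma adjusted p = 0.364 and 0.808). In Paused the start interval was at 377 ± 65.3, 372 ± 2.99 and 373 ± 33.7 (limma adjusted p = 0.986 and 0.982). All means at the start of Uhrf1 lay within the spread of the WT libraries. Both calls in the Uhrf1 window were in Ctrl, were higher, and lay in the bodies of neighbouring genes. The interval at chr17:56285518-56285718, in Plin3, which encodes a lipid droplet protein, had 21.4, 20.6, 9.86 and 31.3 reads in WT, 45.3, 41.1, 43.1 and 40.4 in Smad2_KO1, and 38.1, 36.4, 48.9 and 33.2 in Smad2_KO2. All 8 knockout libraries were above all 4 WT libraries, by 1.10 and 0.97 on the log2 scale (SE 0.21, adjusted p = 0.00037 and 0.00166), and the call held in every setting run. The other, at chr17:56334543-56334743 in Kdm4b, which encodes a histone demethylase, rose from 24.7 ± 2.72 to 40.0 ± 9.14 and 40.5 ± 2.34 (SD, n = 4 each; limma adjusted p = 0.0132 and 0.00869). That call was lost without Smad2_KO1 replicate 3 (adjusted p = 0.0978) and in the DESeq2 test (adjusted p = 0.0586). In Paused none of the 25 tested Uhrf1 intervals was called, against 13.9% of all tested intervals.

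Dnmt3b, a de novo methyltransferase expressed in the early embryo, had 3 lower calls of 17 tested intervals in Ctrl (3.2% of all intervals). In Paused it had 3 lower calls of 11 tested (4.92% of all). Its 1 higher call was in Ctrl (3.95% of all). Its RefSeq start is at chr2:153649449 on the + strand, and neither table had an interval within 500 bases of it. The 250 bases before that start hold 21 CpG, against a median of 6 over 32851 RefSeq promoters, and are shown because the accessible intervals of Dnmt3b lie away from this CpG-rich start (chr2:153649199-153649448, GRCm38.p6, + strand, CpG in capitals).
Dnmt3b: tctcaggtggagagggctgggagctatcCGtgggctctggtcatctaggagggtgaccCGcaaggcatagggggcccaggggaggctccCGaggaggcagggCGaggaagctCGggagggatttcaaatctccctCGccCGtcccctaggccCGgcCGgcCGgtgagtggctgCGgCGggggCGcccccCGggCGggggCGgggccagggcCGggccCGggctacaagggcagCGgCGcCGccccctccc

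The strongest interval called at Dnmt3b lay 6.2 kb upstream of the start, at chr2:153643143-153643343 in Ctrl. WT libraries had 334, 323, 329 and 259.9 normalized reads there, Smad2_KO1 libraries 210.3, 223, 232 and 267, and Smad2_KO2 libraries 188, 239, 207 and 235. All knockout libraries but 1 lay under the lowest WT library. The log2 fold change was -0.41 in Smad2_KO1 and -0.52 in Smad2_KO2 (SE 0.10, adjusted p = 0.00442 and 0.00045). In Paused the interval at chr2:153643137-153643337 had 272, 286, 260.0 and 271 reads in WT, 197, 159, 168 and 212 in Smad2_KO1, and 146, 182, 184 and 200.2 in Smad2_KO2. Here the 8 knockout libraries were all under the 4 WT libraries, the log2 differences being -0.57 and -0.62 (SE 0.10, adjusted p = 0.000157 and 6.18e-05). The authors' deposited table gives log2 folds of -0.44 in Ctrl and -0.56 in Paused for the same intervals.

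Another upstream interval, 9.9 kb before the start, was also lower in both tables. At chr2:153639454-153639654 in Ctrl it had 123, 111, 112 and 130.5 reads in WT, 86.3, 83.3, 82.5 and 85.5 in Smad2_KO1, and 91.2, 71.9, 60.6 and 70.5 in Smad2_KO2. No library of a knockout line reached the WT range, and the differences were -0.49 and -0.70 in log2 (SE 0.13, adjusted p = 0.0093 and 0.000226). At chr2:153639459-153639659 in Paused the means were 119 ± 15.5, 83.1 ± 5.91 and 81.5 ± 10.9 (SD, n = 4 each), again with no overlap between knockout and WT libraries (limma adjusted p = 0.00401 and 0.00232). The 4 calls at these 2 places kept their sign and their call in every setting run, with log2 fold changes averaged over the knockout lines between -0.67 and -0.39 (Ctrl) or -0.70 and -0.44 (Paused).

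The remaining calls of Dnmt3b lay in or after the gene. In Paused an interval 2.4 kb inside the gene, at chr2:153651758-153651958, had 259, 239, 259 and 228 reads in WT, 193, 172, 190.0 and 206 in Smad2_KO1, and 186, 176, 175 and 216 in Smad2_KO2. Every knockout library was under every WT library (log2 fold changes -0.37 and -0.39, SE 0.10, adjusted p = 0.00604 and 0.00424), and the call held in every setting run. The nearest Ctrl interval, at chr2:153651416-153651616, does not overlap it. It fell from 48.3 ± 9.41 in WT to 26.8 ± 4.55 and 31.1 ± 7.45 in the knockout lines (SD, n = 4 each; limma adjusted p = 0.00289 and 0.0247). That call was lost without WT replicate 1 or 4 (adjusted p = 0.0604 and 0.112), without Smad2_KO2 replicate 1 or 3 (0.0779 and 0.11) and in the DESeq2 test (0.0831). The higher call, at chr2:153696071-153696271 beyond the gene's end in Ctrl, rose from 11.8 ± 1.43 to 22.2 ± 3.3 and 21.2 ± 6.47 (SD, n = 4 each). It was lost in 13 of 23 settings, including without any single WT library, without Smad2_KO1 replicate 1 or 3 and without Smad2_KO2 replicate 1, 2 or 4, with adjusted p up to 0.178.

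Summed over whole windows, 1 gene of the 9 was called, Dnmt3b in Paused. In Paused the sum averaged 1260.3 ± 48.6 for WT, 1060 ± 45.5 for Smad2_KO1 and 1089 ± 46.8 for Smad2_KO2 (SD, n = 4 each). The differences were -0.25 and -0.21 in log2 (SE 0.05, limma adjusted p = 0.000202 and 0.000996). The 3 intervals called at Dnmt3b in Paused are part of this sum, so the window is not separate support for them. Over the 11 tested Dnmt3b intervals in Paused, the median log2 fold change was 0.01, averaged over the knockout lines. Over all gene windows 27.3% were called in Paused (6.62% higher and 20.7% lower) and 8.4% in Ctrl (3.36% higher and 5.04% lower). In Ctrl the sum was 1014 ± 54.2, 910 ± 24.7 and 892 ± 62.1 (SD, n = 4 each; limma adjusted p = 0.069 and 0.0286) and was not called. The edgeR and DESeq2 tests called no window in Ctrl either. Size factors and TMM factors changed this count: they called Dnmt3b and Tet1 in Ctrl, and Dnmt1, Uhrf1, Tet1 and Tdg beside Dnmt3b in Paused. The share of all gene windows called with these factors was not counted, so the added windows cannot be set against a background. Leaving out Smad2_KO2 replicate 3 called the Tet2 window in Ctrl, and leaving out WT replicate 3 called the Tdg window in Paused, making 1 and 2 windows.

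**Figure D2:**
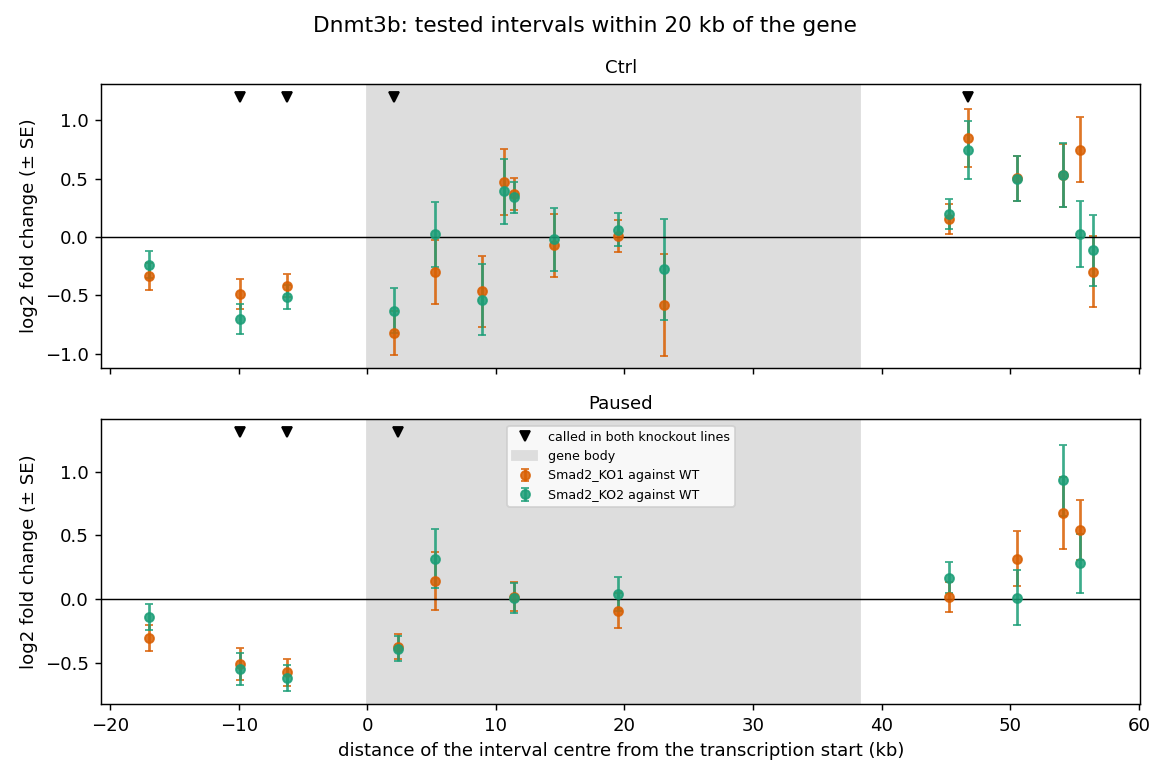
Log2 fold change (± SE) of each knockout line against WT at every tested interval of Dnmt3b, by distance from its transcription start in kb, in Ctrl (top) and Paused (bottom); grey is the gene body and triangles mark calls. The lower calls lie 9.9 and 6.2 kb before the start in both tables and 2.1 or 2.4 kb after it; the Ctrl triangle beyond the gene is the higher call.

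Dnmt3a, the other de novo methyltransferase, had higher calls in Paused, several of them at weak intervals. Its start intervals were not called: in Ctrl the one at chr12:3806322-3806522 averaged 144 ± 16.8 for WT, 125 ± 18.3 for Smad2_KO1 and 132 ± 5.63 for Smad2_KO2 (SD, n = 4 each; limma adjusted p = 0.277 and 0.591). In Paused the strongest start interval was another, at chr12:3891728-3891928, with 237 ± 28.8, 229 ± 14.7 and 220.2 ± 10.5 (limma adjusted p = 0.801 and 0.499). Of 45 tested intervals, 2 were higher and 1 lower in Ctrl, and 9 were higher and 0 lower in Paused. Of all tested intervals, 3.95% were higher and 3.2% lower in Ctrl, and 9.01% and 4.92% in Paused.

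The largest change of any call at the 9 genes was 7.7 kb before the gene body of Dnmt3a, at chr12:3793764-3793964 in Paused, 13.1 kb before the nearest start in the RefSeq promoter table. WT libraries had 10.8, 7.51, 4.32 and 3.97 reads, Smad2_KO1 libraries 37.1, 33.5, 30.2 and 25.8, and Smad2_KO2 libraries 29.0, 24.0, 34.8 and 18.6. The lowest knockout library was above the highest WT library, and the differences were 2.17 and 1.91 in log2 (SE 0.27, adjusted p = 4.87e-07 and 4.22e-06). The matching Ctrl interval, chr12:3793793-3793993, had 9.61, 5.37, 11.0 and 16.2 reads in WT, 24.8, 26.7, 25.3 and 24.3 in Smad2_KO1, and 23.1, 30.9, 23.4 and 13.1 in Smad2_KO2 (log2 fold changes 1.27 and 1.06, adjusted p = 0.000826 and 0.00549). It was higher too, but 1 Smad2_KO2 library lay within the WT range. Both calls held in every setting run.

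The next 3 Dnmt3a intervals in Paused had all knockout libraries above WT. The one at chr12:3795601-3795801 rose from 38.4 ± 1.73 to 65.1 ± 5.81 and 68.1 ± 6.91 (SD, n = 4 each), and its call held in every setting run. The one at chr12:3817142-3817342, inside the gene, rose from 56.5 ± 6.73 to 83.1 ± 13.5 and 79.7 ± 8.25 and was lost without Smad2_KO2 replicate 3 (adjusted p = 0.0552). Beyond the gene's end, chr12:3917839-3918039 rose from 10.3 ± 1.11 to 26.0 ± 4.31 and 23.5 ± 7.66, held in every setting run, and was higher in Ctrl as well, where it was lost without Smad2_KO1 replicate 1 (adjusted p = 0.0537). The other 5 higher calls in Paused had log2 fold changes from 0.41 to 0.98, and all 5 were lost without replicate 2 of both knockout lines. The lower Ctrl call, at chr12:3887493-3887693, was 271 ± 32.5 in WT, 207 ± 10.0 and 215 ± 30.02 in the knockout lines, with groups that overlapped. It was lost in the DESeq2 test, with loess, and without WT replicate 1 or 2 or Smad2_KO2 replicate 1, 3 or 4, with adjusted p up to 0.104.

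Dnmt3l, the inactive partner, had no call inside its own gene. Its start interval at chr10:78049651-78049851 in Ctrl averaged 224 ± 31.7 for WT, 233 ± 29.2 for Smad2_KO1 and 238 ± 15.4 for Smad2_KO2 (SD, n = 4 each; limma adjusted p = 0.771 and 0.602). In Paused the strongest was at chr10:78055295-78055495, near another annotated start, with 220.4 ± 27.8, 257 ± 26.6 and 257 ± 25.4 (limma adjusted p = 0.107 and 0.113), and it was not called. The calls in its window were all higher and lay in neighbouring genes. An interval in Icosl, which encodes a T cell costimulatory ligand, at chr10:78074994-78075194, rose in Ctrl from 36.4 ± 4.98 to 60.1 ± 1.83 and 56.7 ± 3.26, with no overlap between knockout and WT libraries (limma adjusted p = 0.00123 and 0.00448), and held in every setting run. The same place in Paused rose from 64.2 ± 7.67 to 83.8 ± 5.93 and 93.7 ± 9.67 (limma adjusted p = 0.0334 and 0.00328). That Paused call was lost with size factors (0.121), TMM factors (0.107) and the DESeq2 test (0.102), without replicate 2 of both knockout lines (0.121), without WT replicate 3 or 4 (0.0904 and 0.0654), and without Smad2_KO1 replicate 2, 3 or 4 (0.108, 0.0518 and 0.0658). An interval in Aire, a thymic transcriptional regulator, at chr10:78031702-78031902, was called higher in Paused (27.2 ± 9.9, 45.9 ± 6.53 and 50.7 ± 10.2; limma adjusted p = 0.00434 and 0.00114) and held in every setting run.

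**Figure D3:**
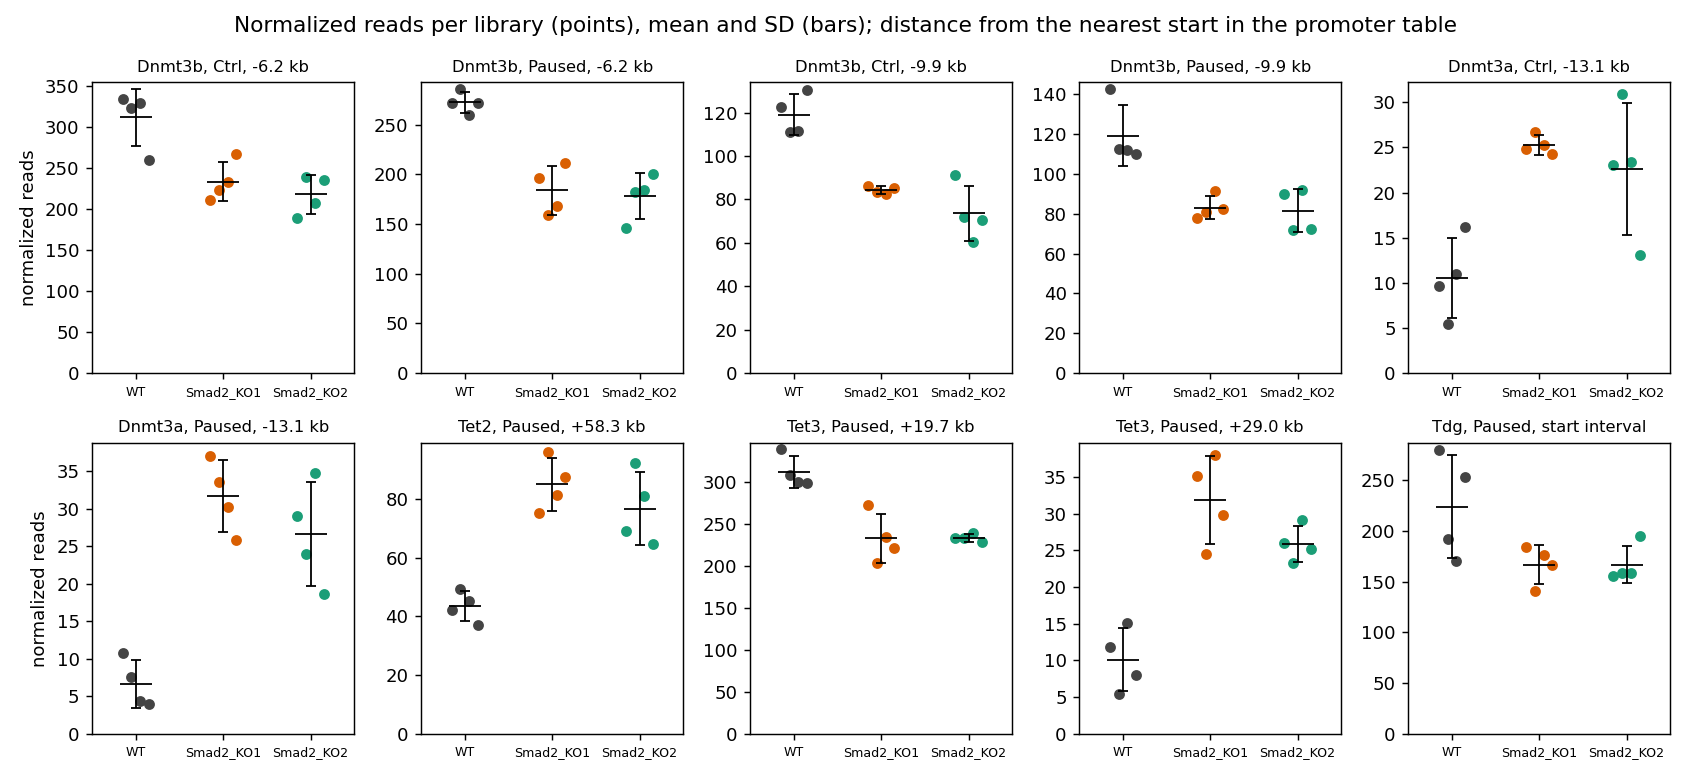
Normalized reads of each library (points) with the group mean and SD (bars) at 10 called intervals, by line; the title gives gene, table and distance from the nearest start in the RefSeq promoter table. In Paused all knockout libraries lie under WT at Dnmt3b and above WT 13.1 kb before the nearest listed start of Dnmt3a, in Ctrl 1 knockout library overlaps WT at 6.2 kb before Dnmt3b and 1 at Dnmt3a, and at the Tdg start the groups overlap.

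Tet1, which embryonic stem cells express strongly, had the most intervals of the 9 genes and few calls. In Ctrl 0 of 51 tested were called (7.15% of all intervals). In Paused 1 was higher and 1 lower of 58 tested (9.01% and 4.92% of all). The Paused table had an interval at its start, at chr10:62887334-62887534, wholly within the 250 bases before the RefSeq start, which are shown for that reason (chr10:62887325-62887574, GRCm38.p6, - strand, CpG in capitals).
Tet1: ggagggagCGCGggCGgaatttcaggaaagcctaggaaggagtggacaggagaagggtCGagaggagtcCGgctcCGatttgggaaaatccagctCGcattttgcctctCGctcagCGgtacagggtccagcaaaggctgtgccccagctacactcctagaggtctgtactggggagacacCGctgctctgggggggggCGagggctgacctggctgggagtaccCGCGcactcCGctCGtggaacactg

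That interval had 284, 249, 211 and 248 reads in WT, 286, 280.0, 242 and 262 in Smad2_KO1, and 255, 278, 223 and 253 in Smad2_KO2. The 3 lines overlapped, the log2 differences being 0.11 and 0.03 (SE 0.10, adjusted p = 0.422 and 0.868). In Ctrl the nearest interval was 0.941 kb after the start. The higher Paused call, at chr10:62813063-62813263 within the gene, rose from 83.9 ± 6.7 to 123 ± 17.0 and 125 ± 18.2 (SD, n = 4 each; limma adjusted p = 0.00194 and 0.00158). Its knockout libraries were all above WT, and the call held in every setting run. The lower call, 15.7 kb before the start at chr10:62902928-62903128, fell from 367 ± 11.1 to 282 ± 34.7 and 298 ± 23.4 (limma adjusted p = 0.00229 and 0.0151), with no overlap. It was lost with loess along the mean level (adjusted p = 0.255), without replicate 2 of both knockout lines (0.0657), and without Smad2_KO2 replicate 1 or 2 (0.0637 and 0.0583). The matching Ctrl interval was at 294, 258 and 247 on average and was not called (limma adjusted p = 0.191 and 0.0731).

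The start of Tet2, an enzyme of the same family, passed no test in either table. Its promoter is the most CpG-rich of the 9 genes, with 51 CpG in 250 bases, more than in 99.9% of RefSeq promoters, and is shown beside the other sequences for that contrast (chr3:133544391-133544640, GRCm38.p6, - strand, CpG in capitals).
Tet2: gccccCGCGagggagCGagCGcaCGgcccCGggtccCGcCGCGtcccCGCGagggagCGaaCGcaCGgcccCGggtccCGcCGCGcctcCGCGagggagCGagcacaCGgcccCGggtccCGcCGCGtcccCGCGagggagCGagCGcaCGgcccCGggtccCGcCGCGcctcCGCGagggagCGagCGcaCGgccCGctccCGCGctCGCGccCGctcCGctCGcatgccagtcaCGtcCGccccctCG

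In Ctrl the start interval, chr3:133544278-133544478, had 282, 229, 203 and 249 reads in WT, 261, 207, 229.6 and 232 in Smad2_KO1, and 234, 241, 217 and 258 in Smad2_KO2. In Paused, chr3:133544249-133544449 averaged 265 ± 12.5 for WT, 267 ± 14.4 for Smad2_KO1 and 260.4 ± 30.8 for Smad2_KO2 (SD, n = 4 each). Neither was called, with limma adjusted p from 0.819 to 0.971. In the Tet2 window 2 of 40 tested intervals were higher in Ctrl, and 7 of 36 were higher and 1 lower in Paused. Of all tested intervals, 3.95% were higher in Ctrl, and 9.01% were higher and 4.92% lower in Paused.

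Among the higher Tet2 calls in Paused was the interval at chr3:133485960-133486160. WT libraries had 42.1, 49.4, 45.3 and 37.1 reads, Smad2_KO1 libraries 75.1, 96.1, 81.2 and 87.4, and Smad2_KO2 libraries 68.9, 92.2, 80.8 and 64.5. No knockout library reached down to the WT range (log2 fold changes 0.95 and 0.80, SE 0.14, adjusted p = 1.35e-05 and 0.00016), and the call held in every setting run. The same place in Ctrl, chr3:133485957-133486157, was at 47.7 ± 4.37, 72.0 ± 8.73 and 65.6 ± 12.9 (SD, n = 4 each; limma adjusted p = 0.00766 and 0.0495). That Ctrl call was lost in 14 of 23 settings, among them leaving out WT replicate 1, 2 or 4, Smad2_KO1 replicate 1, 3 or 4, or any Smad2_KO2 library, with adjusted p up to 0.244.

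Another 2 Tet2 intervals in Paused held their higher call in every setting run. The one at chr3:133506634-133506834 rose from 42.1 ± 4.02 to 69.5 ± 1.45 and 66.5 ± 12.3, and the one at chr3:133454581-133454781 from 25.0 ± 5.64 to 41.9 ± 2.83 and 43.3 ± 8.93 (SD, n = 4 each). The second place was higher in Ctrl too (33.0 ± 6.23, 54.7 ± 12.4 and 53.4 ± 11.0), a call lost without Smad2_KO1 replicate 3 (adjusted p = 0.0519) or Smad2_KO2 replicate 2 (0.0542). One with fewer reads, at chr3:133467277-133467477, rose by a larger factor, from 8.3 ± 3.03 to 20.9 ± 2.97 and 17.4 ± 4.46. It was lost with loess (adjusted p = 0.0818) and without replicate 2 of both knockout lines (0.0594). The other 3 higher calls had log2 fold changes from 0.72 to 0.93, and all 3 were lost without that pair. The lower Tet2 call in Paused, named after its value was seen, was at a strong interval inside the gene, 10.1 kb after its start, chr3:133534195-133534395, with 460.1 ± 17.6, 381 ± 25.4 and 394 ± 45.5 reads. It was lost without the pair as well.

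Tet3, the Tet enzyme best known from the zygote, had the largest share of calls in Paused, 8 higher and 1 lower of 27 tested. Of all tested intervals 9.01% were higher and 4.92% lower. This ranking depends on replicate 2 of both knockout lines. Without that pair Dnmt3b kept its 3 calls of 11 tested, while Tet3 lost 1 of 3 named higher calls and 3 of 5 others. The Tet3 start interval, chr6:83441573-83441773 in Ctrl, lies within 500 bases of the start of B230319C09Rik as well. It averaged 235 ± 26.5 for WT, 262 ± 39.4 for Smad2_KO1 and 251 ± 9.18 for Smad2_KO2 (SD, n = 4 each; limma adjusted p = 0.357 and 0.58), and in Paused 347 ± 61.8, 359 ± 33.5 and 339 ± 37.2 (limma adjusted p = 0.684 and 0.899). The start was not called in either table.

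The lower Tet3 call was at a strong interval inside the gene, 19.7 kb after the start at its start interval, chr6:83421841-83422041 in Paused. WT libraries had 339, 308, 299.9 and 298 reads, Smad2_KO1 libraries 272, 203, 234 and 221, and Smad2_KO2 libraries 233, 232, 239 and 228. The knockout libraries were all under WT (log2 fold changes -0.42 and -0.41, SE 0.09, adjusted p = 0.00117 and 0.00155), and the call held in every setting run. The matching Ctrl interval, chr6:83421800-83422000, was at 208 ± 13.6, 179.9 ± 7.36 and 169.8 ± 11.9 (SD, n = 4 each; limma adjusted p = 0.177 and 0.0506) and was not called.

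The higher Tet3 calls in Paused were at weak intervals. At chr6:83412573-83412773, 29.0 kb after the same start, WT libraries had 11.9, 5.37, 15.1 and 7.95 reads, Smad2_KO1 libraries 35.2, 24.5, 38.0 and 29.8, and Smad2_KO2 libraries 26.0, 23.3, 29.2 and 25.2. The knockout and WT libraries did not overlap (log2 fold changes 1.64 and 1.36, SE 0.25, adjusted p = 1.39e-05 and 0.000178), and the call held in every setting run. Near the gene's far end, chr6:83364530-83364730 rose from 14.6 ± 3.9 to 27.4 ± 3.45 and 26.7 ± 2.8 (SD, n = 4 each) and held in every setting run. Close by, chr6:83363899-83364099 rose from 9.26 ± 1.95 to 18.7 ± 4.97 and 22.4 ± 6.22. It was lost with loess (adjusted p = 0.0935), in the DESeq2 test (0.0575), without replicate 2 of both knockout lines (0.0503) and without Smad2_KO1 replicate 1 (0.0673). The other 5 had log2 fold changes from 0.57 to 1.04, and 3 of them were lost without replicate 2 of both knockout lines.

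In Ctrl, 3 of 30 tested Tet3 intervals were higher and 1 was lower (3.95% and 3.2% of all intervals). The interval at chr6:83467781-83467981 rose from 19.5 ± 3.26 to 38.5 ± 8.15 and 34.7 ± 7.96, and the one at chr6:83394301-83394501 from 8.24 ± 1.93 to 22.3 ± 4.47 and 18.5 ± 5.0 (SD, n = 4 each). At both of them knockout and WT libraries did not overlap, and both calls held in every setting run. The third, chr6:83415512-83415712, rose from 6.57 ± 3.01 to 16.8 ± 6.37 and 15.3 ± 2.59 and was lost without WT replicate 4 (adjusted p = 0.0833) and in the DESeq2 test (0.0654). The lower one, chr6:83443585-83443785, had a wide WT spread of 15.0, 31.4, 49.3 and 43.1 reads, against 16.8 ± 5.04 and 18.7 ± 3.49 in the knockout lines. It was lost in 14 of 23 settings, among them leaving out WT replicate 2, 3 or 4, Smad2_KO1 replicate 1, 2 or 3, or any Smad2_KO2 library, with adjusted p up to 0.214.

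Tdg, which removes oxidized methylcytosine, had the 1 start interval of the 9 genes that was called, in Paused. The interval covers 146 of the 250 bases before the RefSeq start, which hold 19 CpG and 1 CCAAT box (CCAAT, both strands, present in 33.8% of 32851 promoters) and no GGGCGG box (32.7%), CAGAC Smad element (42.2%) or TGTGGATT Foxh1 motif (0.718%). That stretch is shown because it carries this call (chr10:82629588-82629837, GRCm38.p6, + strand, CpG in capitals). GGGCGG holds a CpG itself. The promoters shown above for Dnmt3b, Tet1 and Tet2 hold 3, 1 and 1 GGGCGG, Tet1 also 1 CAGAC, and none of them TGTGGATT. A match, or its absence, describes these letters alone.
Tdg: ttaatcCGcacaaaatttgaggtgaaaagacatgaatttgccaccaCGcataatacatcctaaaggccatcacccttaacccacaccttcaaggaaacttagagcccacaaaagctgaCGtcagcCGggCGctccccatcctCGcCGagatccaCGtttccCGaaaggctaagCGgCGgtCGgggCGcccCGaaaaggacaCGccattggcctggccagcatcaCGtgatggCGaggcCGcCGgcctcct

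In Paused the Tdg start interval, chr10:82629692-82629892, had 279.6, 192, 170.5 and 253 reads in WT, 184, 140.5, 176 and 166 in Smad2_KO1, and 156, 158, 158 and 195 in Smad2_KO2. Libraries 1 and 4 of WT were above all others, while libraries 2 and 3 lay within the knockout range. The log2 fold change was -0.40 in each knockout line (SE 0.12, adjusted p = 0.0154 and 0.0158). The call was lost without WT replicate 1 (adjusted p = 0.0983) or 4 (0.0604), without Smad2_KO1 replicate 2 (0.0888), without Smad2_KO2 replicate 1, 2 or 3 (0.054, 0.0512 and 0.0503), without replicate 2 of both knockout lines (0.101), and with loess (0.0653). In Ctrl, chr10:82629673-82629873 was at 199 ± 22.6, 166 ± 23.0 and 166 ± 12.9 (SD, n = 4 each; limma adjusted p = 0.101 and 0.12) and was not called. The authors' deposited table lists it at a false discovery rate of 0.0375 in Ctrl and 0.00172 in Paused.

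The other Tdg call, inside the gene at chr10:82638890-82639090 in Paused, was at a weak interval that rose from 6.09 ± 3.43 to 12.9 ± 3.53 and 14.6 ± 3.2 (SD, n = 4 each). It was lost in the DESeq2 test (adjusted p = 0.0873), with loess (0.168), without replicate 2 of both knockout lines (0.058), and without WT replicate 1 or 2 (0.0608 and 0.112) or Smad2_KO1 replicate 1 or 3 (0.0885 and 0.0856). None of the 12 tested Tdg intervals was called in Ctrl, against 7.15% of all tested intervals.

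Of the start intervals of the 9 genes, 0 of 7 were called in Ctrl and 1 of 8 in Paused. The 1 called, at Tdg, was lost without replicate 2 of both knockout lines. Over all genes with a start in the RefSeq promoter table, 1.81% of start intervals were higher and 2.53% lower in Ctrl, and 3.56% and 10.8% in Paused. The 7 start intervals in Ctrl and 8 in Paused were all in the top decile of tested intervals by level, with means over the 12 libraries of 134 to 376 (Ctrl) or 186 to 374 (Paused). Their log2 fold changes, averaged over the knockout lines, were between -0.27 and 0.13 in Ctrl, and in Paused between -0.40 and 0.22. Of the 35 called intervals in Paused, 20 of the higher and 4 of the lower ones lay inside a gene body of the 9, and of the 16 in Ctrl, 3 and 3. That is 68.6% of the calls in Paused and 37.5% in Ctrl, beside 64.3% and 63.9% of the tested intervals of these genes.

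Direction went with level. The 28 higher calls in Paused had a median level of 22.8 normalized reads and the 7 lower calls one of 211. Among intervals of these genes in the top 2 deciles of level, 3 of 67 were higher and 7 lower in Paused, against 4.56% and 13.8% of all such intervals. In deciles 3 to 8, 22 of 143 were higher and 0 lower, against 11.2% and 3.22% of all. Without replicate 2 of both knockout lines, the Paused counts were 2 higher and 4 lower in the top 2 deciles (2.68% and 7.53% of all such intervals) and 10 and 0 in deciles 3 to 8 (5.36% and 1.98%). In Ctrl the top 2 deciles had 1 higher and 3 lower of 63, against 3.34% and 6.37%. The same slope was present over all tested intervals, whose median log2 fold change in Paused fell from 0.36 in the lowest decile of level to -0.14 in the highest. With loess, which removes that slope, 19 intervals were called in Paused, 14 higher and 5 lower, against 9.65% of all intervals (4.61% and 5.04%), and 16 in Ctrl, 12 higher and 4 lower, against 6.5% (2.66% and 3.84%). The 6 lower calls of Dnmt3b kept their direction and their call under loess.

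**Figure D4:**
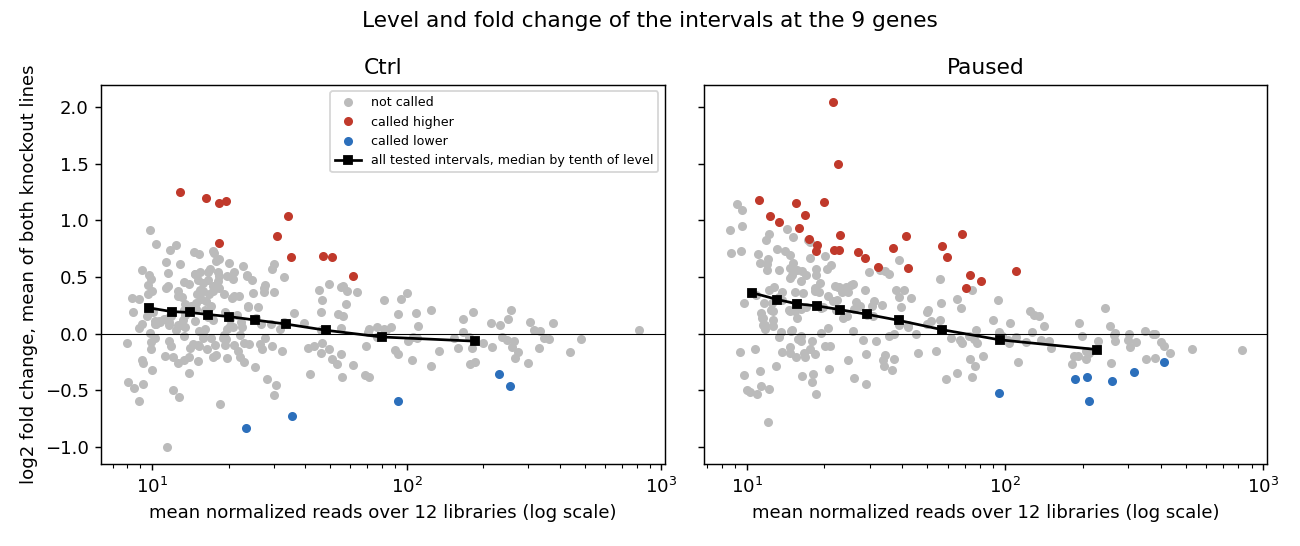
Log2 fold change (mean of both knockout lines) of every tested interval of the 9 genes by its mean level in normalized reads (log axis), for Ctrl (left) and Paused (right); black squares are medians of all tested intervals by decile of level. Higher calls sit mostly at low levels and lower calls mostly at high ones, as the medians of all intervals do.

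Pausing was compared with Ctrl as a description only, since the tables have their own intervals and normalization. Intervals that overlapped by at least 50% of each gave 188 matched pairs at the 9 genes, of 215826 in all, and values were set on RPM, reads scaled to each library's reads in matched intervals. The median log2 ratio of Paused to Ctrl at the genes was -0.12 in WT, -0.07 in Smad2_KO1 and 0.00 in Smad2_KO2, beside -0.08, -0.03 and -0.03 over all matched intervals. By gene it ran in WT from -0.29 at Tet2 (30 matched intervals) and -0.22 at Dnmt3a (32) to 0.24 at Dnmt3l (11). Dnmt3l was the highest in WT, and its medians in Smad2_KO1 and Smad2_KO2 were 0.20 and 0.19, while those of Tet3 (21 intervals) were 0.01 in WT, 0.21 in Smad2_KO1 and 0.21 in Smad2_KO2.

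The start of Dnmt1 was at 22.1 ± 0.497 RPM in Ctrl WT and 28.0 ± 3.12 in Paused WT, 20.3 ± 1.76 and 23.9 ± 1.71 in Smad2_KO1, and 21.0 ± 2.01 and 25.5 ± 1.31 in Smad2_KO2 (SD, n = 4 each). The Paused libraries were above the Ctrl libraries in each line with no overlap, as at 3.08% of all matched intervals. In a single line 7.09% (WT), 10.6% (Smad2_KO1) and 9.32% (Smad2_KO2) of all matched intervals were above Ctrl with no overlap, and 10.9%, 11.9% and 10.8% were below. Of the 7 matched start intervals, those of Dnmt3a and Dnmt3l were also above Ctrl with no overlap in both knockout lines, and overlapped in WT. For these 2 genes, whose strongest start interval differs between the tables, the pairs start at chr12:3806322 and chr10:78055305 in Ctrl. Tet3 was above without overlap in Smad2_KO2, and Uhrf1 below without overlap in Smad2_KO1. The Tet2 start was at 19.5 and 19.0 in WT, with overlap in every line. An interval inside Tet2, 19.6 kb after its start, at chr3:133524714-133524914 in Ctrl and named after its values were seen, was lower in Paused in each line with no overlap, as were 3.57% of all matched intervals: 18.8 against 11.0 in WT, 22.1 against 11.2 in Smad2_KO1 and 21.9 against 10.5 in Smad2_KO2.

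**Figure D5:**
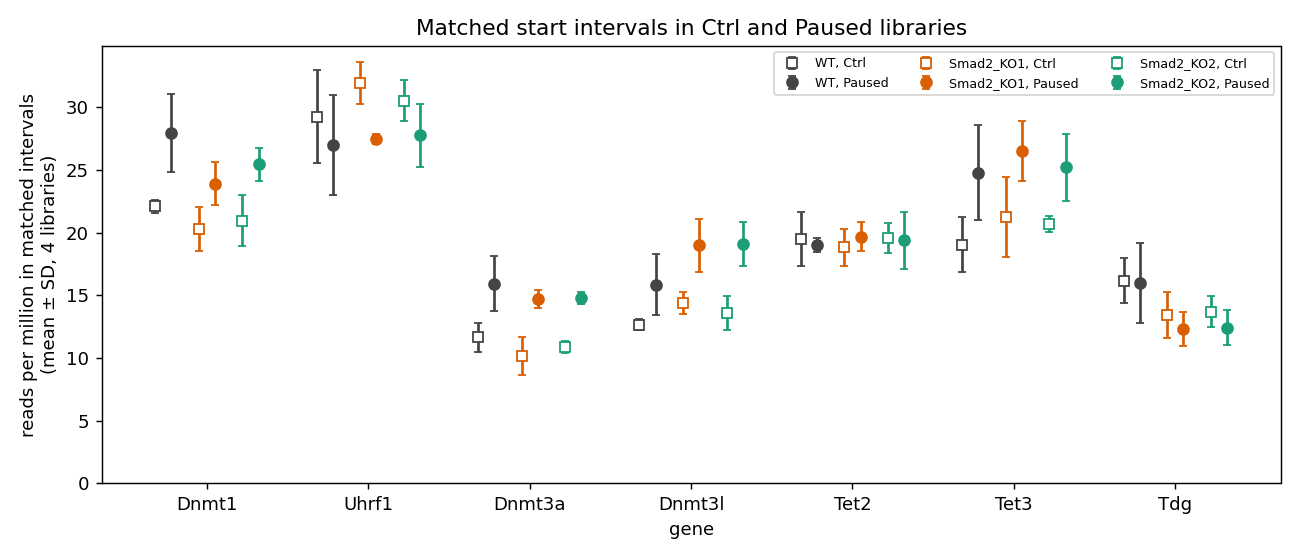
RPM in matched intervals (mean ± SD, 4 libraries) at the 7 start intervals present in both tables, by gene, line and treatment. The Dnmt1 start is higher in Paused than in Ctrl in all 3 lines, and the Tet2 start overlaps between treatments in all 3.

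Calls in the knockout lines could be followed across the tables at the same 188 pairs, with each table's own test. Of these pairs, 8 were higher in both tables, 2 were lower in both (the Dnmt3b intervals at -9.9 and -6.2 kb), and 0 were called in opposite directions. Over all 215826 pairs, 2.5% were higher in both tables, 2.24% lower in both and 0 opposite, beside 4.26% and 1.06% at these genes. Another 2 were higher and 2 lower in Ctrl and not called in Paused, 11 were higher and 4 lower in Paused and not called in Ctrl, and 156 were called in neither. The Paused calls here include replicate 2 of both knockout lines. Among those lost without that pair are the Tdg start, the lower Tet1 and Tet2 calls and the Dnmt3l place called in both tables. Whether a knockout effect differed between the treatments was not tested, since the tables were normalized separately.

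At the edge of the windows, 18 intervals lay just inside the 20 kb limit and 18 just outside it, 1 of each (Dnmt3b in Paused) too weak to be tested. None inside was called, and 2 outside were higher, both at 21.3 to 21.5 kb from Dnmt3l, at the same place in the 2 tables.

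Related genes, among them partners of these enzymes, readers of methylated CpG and base excision repair, numbered 32 and were counted the same way under the authors' scaling alone. In Ctrl 18 of 581 tested intervals were higher and 18 lower (3.1% each, against 3.95% and 3.2% of all), and in Paused 32 of 529 were higher and 24 lower (6.05% and 4.54%, against 9.01% and 4.92%). Without replicate 2 of both knockout lines, 21 and 13 were called in Paused (3.97% and 2.46%). No start interval of the 20 tested was called in Ctrl. In Paused 4 of 21 were lower, and they belonged to Mbd3, a subunit of the NuRD remodelling complex, and to Smug1, Neil1 and Xrcc1 of base excision repair, against 10.8% of the start intervals of all genes. Those of Mbd3 (adjusted p = 0.062) and Smug1 (0.135) were lost without replicate 2 of both knockout lines. The Smug1 start, at chr15:103163198-103163398, fell from 409.8 ± 24.1 to 348 ± 33.2 and 328 ± 24.6 (SD, n = 4 each; limma adjusted p = 0.0428 and 0.0067). The Xrcc1 start, at chr7:24546904-24547104, fell from 499 ± 37.4 to 407 ± 18.6 and 410.1 ± 11.9 (limma adjusted p = 0.00717 and 0.00974). Whole windows were called for 2 of the 32 genes in Ctrl and 7 in Paused. Of all gene windows, 8.4% were called in Ctrl (5.04% lower) and 27.3% in Paused (20.7% lower). The called windows were lower for Smug1 and Cxxc5, a CXXC zinc finger protein, in Ctrl. In Paused they were lower for Pcna, Nsd1, Mbd3, Smug1, Apex1 and Cxxc5 and higher for Mat2b, a regulatory subunit in methyl donor synthesis. Of these 7, the windows of Mbd3, Smug1, Apex1 and Cxxc5 kept their call without replicate 2 of both knockout lines.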

How the data were processed

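ATAC-seq values of 24 libraries were analysed. Per the submitters' processing notes the build was mm10 and the tools FastQC, Trim Galore, Bowtie2 2.4.1, MACS3 3.0.3 and DiffBind 3.16.0, with no role or order. Read shifting for the Tn5 cut, duplicate handling and mitochondrial filtering are not given in the sources used here. The authors deposited 2 tables, 1 per treatment, with 299780 (Ctrl) and 272268 (Paused) intervals, each table with 1 set of intervals shared by its 12 libraries. The deposited library values are signal: reads divided by 1 factor per library and rounded. Dividing by the step found in each column gave whole reads, within 0.006, for 99.97% of values or more, and so the depth. The authors' deposited log2 concentrations and log2 fold set the 8 knockout libraries against WT, with a deposited p-value and a false discovery rate for each interval.

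Tests used limma 3.58.1 in R 4.3.3 (trend) on log2(value + 1), on intervals with a value of 10 or more in at least 4 libraries (282089 in Ctrl, 260539 in Paused), with line as the only term and all 12 libraries of a treatment. Such fold changes understate those of weak intervals. Gene windows were the sums over all intervals of a window. Alternatives were edgeR 4.0.16 and DESeq2 1.42.0 on the recovered reads, other scalings, pseudocount 0.1, no filter, 10 and 50 kb flanks, a replicate block, the knockout libraries as 1 group or averaged by replicate number, and leaving out each library. Loess, and leaving out replicate 2 of both knockout lines, were chosen after seeing the data. The fits were tested on simulated data, where most of the doubled or halved weak intervals were missed. A far smaller share of intervals was changed there than was called here, with a single fixed spread between libraries. The rate of misses there need not hold here, and an uncalled weak interval still says little. The recovery required of the fits was set by level after a first requirement over all levels was not met.

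The members, lists and rules were chosen with earlier results of these data known. Named for each gene were its strongest interval within 500 bases of a RefSeq start, and its called intervals (at most 4 a table, by adjusted p). Gene bodies, starts and sequences are from RefSeq GRCm38.p6, and all 9 genes were matched by symbol. Intervals of a window may belong to neighbouring genes.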

Additional observations from a re-analysis of the deposited data

Results flagged for a closer look

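Of 207 groups of 4 libraries searched at the named intervals and windows, 12 had a library standing apart from the other 3, where about 10.35 are expected by chance. At Dnmt3b, WT replicate 4 in Ctrl was low at the interval 6.2 kb upstream (259.9 normalized reads, the others 323.35 to 334.32) and in the summed window (933.9, the others 1030.72 to 1047.02), and Smad2_KO1 replicate 2 was low in the Ctrl window (872.83, the others 920.2 to 923.27). In Paused, WT replicate 1 was high at the Dnmt3b interval 9.9 kb upstream (142.49, the others 109.92 to 112.71). The calls at both upstream intervals held without each of these libraries.

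In Paused, Smad2_KO2 replicate 4 was high at the starts of Uhrf1 (423.36, the others 351.37 to 361.56) and Tdg (194.72, the others 155.81 to 158.28) and low at the Tet3 interval at 83363899 (13.13, the others 24.75 to 25.97). WT replicate 4 was high at the Dnmt3a interval at 3917839 (11.92, the others 9.66 to 9.72), WT replicate 3 at the Tet2 interval at 133454581 (33.45, the others 21.59 to 22.54), and WT replicate 2 at the Tet3 interval at 83364530 (20.39, the others 11.87 to 13.24). Smad2_KO1 replicate 4 was high in the Paused Dnmt3l window (1808.62, the others 1745.35 to 1751.83). WT replicate 4 was low in the Ctrl Tet1 window (2701.39, the others 2857.34 to 2873.22).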

How the results depend on the processing

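Of the 16 named called intervals in Ctrl, 7 kept their call in all 23 settings, and of the 21 in Paused 14 kept it in all 24. The count of calls in Ctrl (16) was 9 with the DESeq2 test, 47 with the knockout libraries as 1 group and 29 with them averaged by replicate number. It ran from 11 to 16 when a library was left out. In Paused (35) it was 18 with the DESeq2 test, 73 as 1 group, 19 with loess and 17 without replicate 2 of both knockout lines, and ran from 23 to 41 when a library was left out. No interval was called between the knockout lines in any setting. Replicate numbers did not meet the rule for pairing, a correlation of deviations above 0.1 in every same-number pair (lowest -0.0057 in Ctrl and -0.0074 in Paused). The mean was 0.027 in Ctrl and 0.052 in Paused, against -0.0089 and -0.017 between different numbers, and 9 and 8 of 12 libraries correlated best with their own number, a hint from the data. With the replicate number as a block, 17 Ctrl and 43 Paused intervals were called. The share of all intervals called was not counted for the 1 group, averaged and block settings or with 1 library left out. Counts of these genes in those settings are therefore not read as a result about the genes.

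Member windows called in Ctrl (0) were 2 with TMM factors, size factors, library totals or the knockout libraries as 1 group, and 1 averaged by replicate number or with 10 kb flanks, and from 0 to 1 with a library left out. In Paused (1) they were 5 with TMM or size factors, 2 with library totals or as 1 group, and from 1 to 2 with a library left out. Shares over all gene windows were not counted in these settings. The median Paused to Ctrl ratio in Smad2_KO2 (0.00) was -0.066 over intervals with identical bounds.

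Start intervals with log2 fold changes near 0, none of them called, changed sign. With TMM factors and size factors in Paused, Tet1 was at -0.020 and -0.033 and Tet3 at -0.070 and -0.082. With library totals in Paused, Uhrf1 was at 0.032 and Tet2 at 0.022. With loess, Tet2 was at 0.044 in Ctrl, and in Paused Uhrf1 was at 0.170, Dnmt3a at 0.059 and Tet2 at 0.128. Without replicate 2 of both knockout lines, Uhrf1 was at 0.0068 and Tet2 at 0.0048. With a library left out, the Ctrl values ran from -0.014 to 0.159 for Uhrf1, from -0.0072 to 0.144 for Dnmt3l and from -0.108 to 0.050 for Tet2. In Paused they ran from -0.0996 to 0.083 for Uhrf1, from -0.118 to 0.0079 for Dnmt3a, from -0.0031 to 0.138 for Tet1, from -0.053 to 0.010 for Tet2 and from -0.075 to 0.109 for Tet3. Some uncalled start intervals gained a call. In Paused this was 1 each with TMM factors, size factors, loess, and without WT replicate 2 or WT replicate 3. With the knockout libraries as 1 group it was 2 in Paused and 1 in Ctrl. The cause of these changes was not tested.

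In the lowest 2 deciles of level 1 of 58 tested intervals of the genes was called in Ctrl and 3 of 53 in Paused, beside 1.89% higher and 0.959% lower (Ctrl) or 6.90% and 1.08% (Paused) of all such intervals.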
